A study of Mus musculus with 6 samples.

Results

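The 41 genes described here encode RNA polymerase I (Pol I), its initiation factors and proteins that process rRNA and assemble ribosomal subunits. They were taken by gene symbol from the table of 54232 genes, and all 41 passed the filter on low counts that left 20327 genes. Testes of B6D2F1 mice at postnatal day 12 gave 3 libraries with the genotype label *Dis3l2* WT (control) and 3 with the label *Dis3l2* KO (KO-labelled). In the study, KO animals carry *Stra8-Cre* with a floxed and a deleted *Dis3l2* allele, so that the Cre acts in pre-meiotic germ cells, and the controls are littermates whose genotype is not given further. The study asked which transcripts change in such testes. Library totals ran from 33325483 to 44956193 counts.

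Ribosomes are built in the nucleolus. Pol I transcribes the rRNA genes into a long precursor, small nucleolar ribonucleoproteins (snoRNPs) guide its chemical modification, a large complex called the small subunit processome folds and cleaves it, and other factors assemble the large subunit. Dividing cells, spermatogonia among them, need a steady supply of ribosomes, and the genes of this pathway are active in every cell type of the testis.

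Of the 41 members, 13 were lower and 4 were higher in the KO-labelled than in the control libraries, and 24 did not pass the test (edgeR's quasi-likelihood test, Benjamini-Hochberg adjusted p under 0.05 over all 20327 genes). Members called lower were 31.7% of the list, beside 16.5% of all tested genes and 17.9% of the protein-coding genes tested. Members called higher were 9.76%, beside 16.2% of all tested genes and 20.2% of the protein-coding ones. The 4 that rose were *Rrs1*, *Polr1b*, *Ubtf* and *Polr1a*, and the falls were largest for *Taf1b*, *Utp18*, *Nat10*, *Wdr12* and *Utp4*. The member log2 fold changes ran from -0.75 to 0.63 with a median of -0.14, beside a median of -0.023 over all tested genes, and 27 of the 41 were below 0. For 21 members the control and KO-labelled libraries did not overlap in CPM (counts relative to the library total, scaled by TMM), which is 51.2% beside 45.5% of all tested genes and 50.5% of the protein-coding ones.

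The number called lower depends on single libraries. It was 8 without control 1, 7 without control 2, 9 without KO-labelled 1 or KO-labelled 2, and 12 without control 3 or KO-labelled 3. Whichever library was left out, 4 or 5 members were higher. Calls over all genes numbered 4948 to 6669 in these fits, beside 6641 with all 6 libraries. The number called lower also depends on the scaling. With factors set so that the median over all somatic cell markers is level between libraries, 36 members were lower and 0 higher. Among all genes 9104 were then lower and 417 higher (3347 and 3294 with TMM). These factors do not level each marker or each somatic cell type. That scaling moved the median of all genes by -0.44 on the log2 scale. Relative to the median of all genes, the median of the members was -0.12 under both scalings. Other library factors shift all genes nearly alike, so this difference could hardly move with the scaling. The difference was -0.062 without control 2 and -0.059 without KO-labelled 1. It was 0.21 in DESeq2 and without a filter, where 42383 genes enter and the median of all genes is -0.33.

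**Figure D1:**
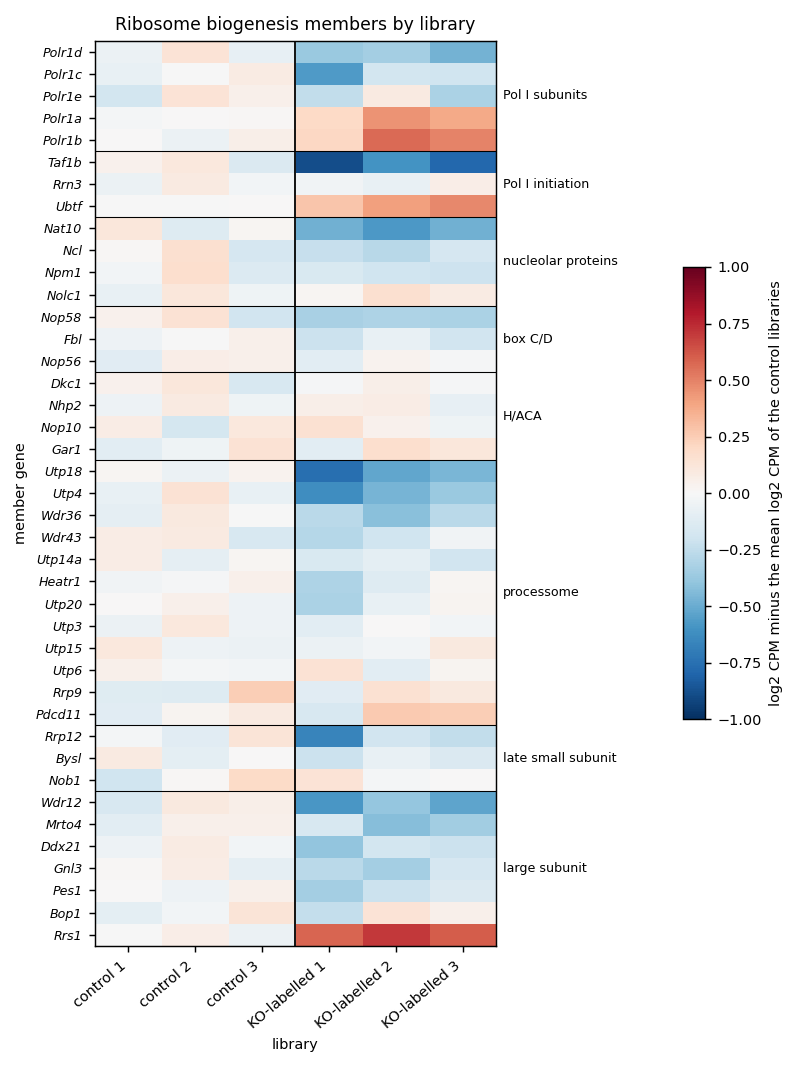
Colour gives log2 CPM of each of the 41 members (rows, grouped by role) in each of the 6 libraries (columns) minus the mean log2 CPM of the 3 control libraries. KO-labelled 1 has 32 members below the control mean, and KO-labelled 2 and KO-labelled 3 have 26 each; *Rrs1*, *Ubtf*, *Polr1a* and *Polr1b* are above it in all 3 KO-labelled libraries.

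The gene named in the sample labels was not called lower in the libraries labelled KO. *Dis3l2* had 25.8, 23.5 and 23.03 CPM in controls 1 to 3, against 31.6, 25.4 and 27.5 CPM in KO-labelled 1 to 3, a log2 fold change of 0.22 ± 0.11 (SE, edgeR adjusted p = 0.136), whereas the homolog *Dis3* had 133, 148 and 137 CPM in controls 1 to 3, against 59.1, 64.3 and 68.1 CPM in KO-labelled 1 to 3, a log2 fold change of -1.13 ± 0.084 (SE, edgeR adjusted p = 2.7e-07). The sample labels name *Dis3l2* and the design text of the series names *Dis3*. Counts per gene also include exons outside a deleted part and cells without the Cre. This holds for *Dis3l2* and *Dis3* alike, and its part in either value was not tested.

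Markers of the cell types of the testis also differed between the groups, and their summed levels stand here beside the members. Over all tested genes, 16.5% were lower and 16.2% higher. Of 10 markers of meiotic prophase, 10 were lower (1053 to 1271 CPM in the control against 265 to 351 CPM, *Sycp2* log2 fold change -2.28), as were 5 of 6 markers of differentiating spermatogonia (494 to 532 CPM in the control against 202 to 251 CPM, *Rhox13* -2.18) and 4 of 5 markers of germ cells at large (1264 to 1487 CPM in the control against 437 to 589 CPM, *Tex101* -2.39). Of 8 markers of undifferentiated spermatogonia, 3 were higher and 1 lower (455 to 479.8 CPM in the control against 381 to 504 CPM, *Etv5* 0.72). All 12 Sertoli cell markers were higher (8209 to 8722 CPM in the control against 13308 to 13931 CPM, *Amh* 1.56). Higher too were 5 of 7 Leydig markers (394 to 439.7 CPM in the control against 571 to 613 CPM, *Hsd3b6* 0.83), 4 of 6 macrophage markers (122 to 141 CPM in the control against 153 to 222 CPM, *Csf1r* 0.47), 2 of 6 endothelial markers (293 to 327 CPM in the control against 381 to 431 CPM, *Cdh5* 0.39) and 2 of 4 stromal markers (3104 to 4047 CPM in the control against 3646 to 5716 CPM, *Pdgfra* 0.52). Of 6 peritubular myoid markers, 3 were lower (1226 to 1244 CPM in the control against 1028 to 1068 CPM, *Cnn1* -0.68). The 2 red blood cell markers tested were not called (12.5 to 14.9 CPM in the control against 8.31 to 12.2 CPM, *Alas2* edgeR adjusted p = 0.106), and each marker on these lists had at least 1 count. In RNA of whole testes, fewer cells of a type and less RNA per cell cannot be told apart, and the part of these shifts in the members' changes was not tested.

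Among the 5 Pol I subunits, the 2 large ones were higher and 1 of the small ones was lower with TMM. These are 40% and 20%, beside 16.2% and 16.5% of all tested genes. *Polr1a* (ENSMUSG00000049553.11, chr6:71909053-71984935, GRCm38) and *Polr1b* (ENSMUSG00000027395.15, chr2:129100995-129126594) encode the largest and the second-largest subunit, which together form the catalytic centre. *Polr1a* had 173, 175 and 177 CPM in controls 1 to 3, against 201, 238 and 228 CPM in KO-labelled 1 to 3. The control libraries lie close together and every KO-labelled library is above them, KO-labelled 1 the least, with a log2 fold change of 0.35 ± 0.080 (SE, edgeR adjusted p = 0.00406). *Polr1b* had 42.1, 40.3 and 43.8 CPM in controls 1 to 3, against 48.5, 62.2 and 59.4 CPM in KO-labelled 1 to 3, with all KO-labelled libraries above the controls, KO-labelled 1 again the least, and a log2 fold change of 0.43 ± 0.10 (SE, edgeR adjusted p = 0.00441). *Polr1d* and *Polr1c* encode the pair of small subunits that Pol I shares with Pol III. *Polr1d* had 59.2, 68.05 and 58.5 CPM in controls 1 to 3, against 47.7, 48.9 and 44.5 CPM in KO-labelled 1 to 3, without overlap and with a log2 fold change of -0.40 ± 0.091 (SE, edgeR adjusted p = 0.00365). For *Polr1c* the values were 23.5, 24.7 and 26.2 CPM in controls 1 to 3, against 16.8, 21.8 and 21.6 CPM in KO-labelled 1 to 3. Those of the KO-labelled libraries were again all lower, but the difference did not pass the test over all genes (log2 fold change -0.31, 95% interval -0.56 to -0.048, edgeR adjusted p = 0.0656). *Polr1c* was called lower when only protein-coding genes were fitted (-0.34). *Polr1e*, which encodes a subunit that helps initiation and elongation, overlapped between groups, with 11.5, 14.4 and 13.5 CPM in controls 1 to 3, against 11, 13.9 and 10.5 CPM in KO-labelled 1 to 3 (95% interval of the log2 fold change -0.47 to 0.16). Of the 50-base stretches of annotated *Polr1d* transcripts, 10.8% also occur in another annotated gene, and featureCounts left out reads with several possible origins.

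The ratio of *Polr1a* to *Polr1d* per kilobase of exon was 0.748, 0.659 and 0.775 in controls 1 to 3, against 1.08, 1.25 and 1.31 in KO-labelled 1 to 3, which is 1.67-fold higher on average. A ratio within a library does not depend on how libraries are scaled. The ratio of *Polr1a* to *Polr1b* was 2.01, 2.12 and 1.97 in controls 1 to 3, against 2.02, 1.87 and 1.88 in KO-labelled 1 to 3, and the groups overlap. The pairs were chosen after their values were seen, and the ratios are a description without a test.

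The sequences around the starts of *Polr1a* and *Polr1b* are shown because these 2 genes rose by similar amounts. Each is RefSeq sequence of GRCm38.p6 from 150 bases before to 30 bases after the annotated start, on the strand of the gene (chr6:71908903-71909082, plus strand, and chr2:129100846-129101025, plus strand). Neither holds CACGTG (the E-box bound by MYC and MAX), CCGGAAG (an ETS-type motif) or TATAAA on either strand, also not within the whole promoter of 300 bases.
Polr1a: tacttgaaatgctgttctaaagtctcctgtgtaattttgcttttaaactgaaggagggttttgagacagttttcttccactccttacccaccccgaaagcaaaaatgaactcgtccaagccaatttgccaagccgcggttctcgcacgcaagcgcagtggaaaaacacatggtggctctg
Polr1b: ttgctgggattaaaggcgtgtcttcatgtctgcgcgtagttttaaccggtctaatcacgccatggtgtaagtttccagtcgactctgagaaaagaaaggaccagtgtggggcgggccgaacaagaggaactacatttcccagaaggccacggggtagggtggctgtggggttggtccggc

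The 3 initiation factors showed 3 different patterns. *Ubtf* (ENSMUSG00000020923.17, chr11:102304560-102319742) encodes the HMG-box protein UBF that coats active rRNA genes. It had 311, 311 and 313 CPM in controls 1 to 3, against 378, 415 and 436 CPM in KO-labelled 1 to 3. The controls have a coefficient of variation of 0.418%, each KO-labelled library is higher, and the log2 fold change of 0.39 ± 0.078 (SE, edgeR adjusted p = 0.0013) is a rise of 31.3% (95% interval 16.99% to 47.3%). *Taf1b* (ENSMUSG00000059669.8, chr12:24498359-24558539) encodes a subunit of the promoter factor SL1. With 25.3, 26.4 and 22.2 CPM in controls 1 to 3, against 13.3, 16.2 and 14.3 CPM in KO-labelled 1 to 3 it fell in every KO-labelled library below every control library, by 40.7% in the fit, the largest fall of a member (log2 fold change of -0.75 ± 0.12 (SE, edgeR adjusted p = 2.5e-04)). *Rrn3*, which carries Pol I to the promoter, had 142, 158 and 145 CPM in controls 1 to 3, against 144, 141 and 155 CPM in KO-labelled 1 to 3, and the groups overlap (log2 fold change -0.015, 95% interval -0.18 to 0.15). Per kilobase, the ratio of *Ubtf* to *Taf1b* was 4.92, 4.72 and 5.65 in controls 1 to 3, against 11.4, 10.2 and 12.2 in KO-labelled 1 to 3. Every KO-labelled ratio is thus above every control ratio, whatever the scaling. With the somatic marker scaling, *Taf1b* stayed lower (log2 fold change -1.19), but *Polr1a*, *Polr1b* and *Ubtf* were no longer higher, with log2 fold changes of -0.09, -5.2e-05 and -0.04.

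**Figure D2:**
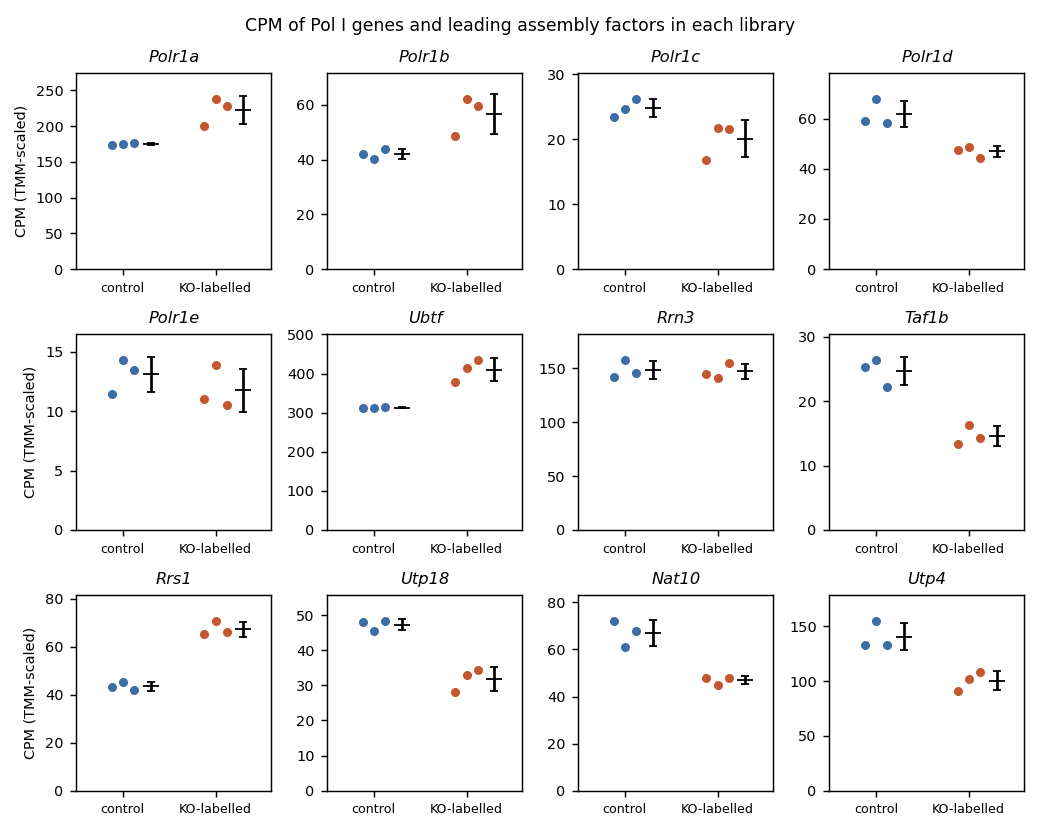
CPM (TMM-scaled, vertical axes from 0) of the 8 Pol I members and of *Rrs1*, *Utp18*, *Nat10* and *Utp4* in each control (blue) and KO-labelled (orange) library, with the mean and SD of the 3 libraries in black. Points of the groups overlap for *Polr1e* and *Rrn3* and are apart in the other 10 panels.

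Of 4 genes of abundant nucleolar proteins, 1 was lower (25%, beside 16.5% of all tested genes) and 0 higher. *Nat10* (ENSMUSG00000027185.15, chr2:103721256-103761270), which encodes the acetyltransferase that modifies cytidines of rRNA and tRNA, had 72.3, 61.2 and 67.7 CPM in controls 1 to 3, against 47.99, 44.9 and 47.9 CPM in KO-labelled 1 to 3. The KO-labelled values are close together and well below the lowest control, a log2 fold change of -0.52 ± 0.089 (SE, edgeR adjusted p = 4.6e-04). *Ncl* (nucleolin) and *Npm1* (nucleophosmin) were the most abundant members per kilobase. *Ncl* had 1760.2, 1948 and 1557 CPM in controls 1 to 3, against 1492, 1442 and 1559 CPM in KO-labelled 1 to 3, where KO-labelled 3 lies just above control 3. *Npm1* had 582, 666 and 539.9 CPM in controls 1 to 3, against 535, 517 and 514 CPM in KO-labelled 1 to 3, where all 3 KO-labelled libraries are below control 3, the lowest control. Neither passed the test (edgeR adjusted p = 0.0688 and 0.105), and their 95% intervals of the log2 fold change were -0.42 to -0.034 and -0.38 to -0.007. Without control 3 both were called lower (log2 fold changes -0.31 and -0.26). *Npm1* has the largest share of 50-base stretches that occur in another annotated gene among the members, 24.3%. *Nolc1*, a chaperone of snoRNPs, overlapped between groups at 127, 145 and 129 CPM in controls 1 to 3, against 135, 149 and 141 CPM in KO-labelled 1 to 3 (95% interval -0.089 to 0.26).

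Of the 3 box C/D genes, 1 was lower (33.3%, beside 16.5% of all tested genes) and 0 higher. Box C/D particles methylate rRNA and consist of the methyltransferase fibrillarin (*Fbl*) on a scaffold of *Nop56* and *Nop58*. *Nop58* had 205, 219.6 and 174 CPM in controls 1 to 3, against 158, 160.2 and 159.6 CPM in KO-labelled 1 to 3. The 3 KO-labelled libraries are close together and lie below all controls, with a log2 fold change of -0.32 ± 0.088 (SE, edgeR adjusted p = 0.0104). *Nop58* was not called without control 1 or without control 2 (log2 fold changes -0.31 and -0.21). *Fbl* had 35.4, 36.5 and 37.9 CPM in controls 1 to 3, against 31.5, 34.8 and 32.01 CPM in KO-labelled 1 to 3, lower in every KO-labelled library but short of the threshold (log2 fold change -0.16, edgeR adjusted p = 0.21). *Nop56*, with 63.4, 71.8 and 71.2 CPM in controls 1 to 3, against 63.7, 70.4 and 68.3 CPM in KO-labelled 1 to 3, overlapped between groups (95% interval -0.21 to 0.15). Of the 50-base stretches of *Fbl* and *Nop56*, 19.7% and 18.6% occur elsewhere, and exons annotated to snoRNA genes on the same strand cover 8.002% of the exon length of *Nop56*.

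H/ACA particles convert uridines to pseudouridines and share their core proteins with telomerase. None of the 4 genes passed the test (edgeR, 0 with an unadjusted p under 0.05), and the groups overlapped for each. *Dkc1*, the pseudouridine synthase, had 92.7, 97.3 and 80.7 CPM in controls 1 to 3, against 89.3, 93.9 and 89.3 CPM in KO-labelled 1 to 3. *Nhp2* had 112, 124 and 113 CPM in controls 1 to 3, against 120.5, 122 and 109.7 CPM in KO-labelled 1 to 3. *Nop10* had 23.4, 19.7 and 24.01 CPM in controls 1 to 3, against 24.8, 22.97 and 21.6 CPM in KO-labelled 1 to 3, and *Gar1* had 39.5, 41.3 and 47.1 CPM in controls 1 to 3, against 39.5, 47.8 and 45.997 CPM in KO-labelled 1 to 3. The log2 fold changes lay between 0.0091 and 0.059, and the 95% intervals together spanned -0.20 to 0.29. With the somatic marker scaling, all 4 were called lower, at -0.43, -0.43, -0.39 and -0.37 in the order named. Under that scaling 9104 of all 20327 genes were lower, and the median over all genes was -0.46, below each of these 4 values.

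Of the 12 processome genes, 3 were lower (25%, beside 16.5% of all tested genes) and 0 higher (edgeR, 3 with an unadjusted p under 0.05). *Utp18* (ENSMUSG00000054079.12, chr11:93859243-93885766) and *Wdr36* (ENSMUSG00000038299.15, chr18:32837225-32866420) belong to the UTP-B module, and *Utp4* (ENSMUSG00000041438.8, chr8:106893636-106923088) belongs to UTP-A, the module that binds the precursor first. *Utp18* had 47.95, 45.5 and 48.5 CPM in controls 1 to 3, against 27.996, 32.9 and 34.4 CPM in KO-labelled 1 to 3. All KO-labelled values lie well under the controls, and the log2 fold change of -0.57 ± 0.098 (SE, edgeR adjusted p = 4.4e-04) was the second-largest fall of a member. *Utp4* had 133, 155 and 133 CPM in controls 1 to 3, against 91.1, 102 and 108 CPM in KO-labelled 1 to 3, with no overlap between groups and a log2 fold change of -0.49 ± 0.090 (SE, edgeR adjusted p = 7.9e-04). *Wdr36* had 90.6, 103 and 96.1 CPM in controls 1 to 3, against 79.9, 72.1 and 80.1 CPM in KO-labelled 1 to 3, again apart, with a log2 fold change of -0.32 ± 0.084 (SE, edgeR adjusted p = 0.00853), a call lost without control 2 (-0.23) or KO-labelled 2 (-0.26). The other genes of both modules among the 41 did not pass. *Utp6* of UTP-B had 75.4, 71.9 and 71.5 CPM in controls 1 to 3, against 80.7, 67.7 and 74.2 CPM in KO-labelled 1 to 3, with overlapping groups. *Utp15* of UTP-A had 38.5, 34.6 and 34.4 CPM in controls 1 to 3, against 34.3, 35.1 and 38.3 CPM in KO-labelled 1 to 3 and the largest adjusted p of the 41 (log2 fold change 0.0034, 95% interval -0.20 to 0.21). *Wdr43* and *Heatr1*, also of UTP-A, had log2 fold changes of -0.18 and -0.13.

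The remaining processome genes were not called either. *Pdcd11*, the homolog of yeast Rrp5 that takes part in assembling both subunits, had 71.9, 79.1 and 82.8 CPM in controls 1 to 3, against 69.6, 93.1 and 92.1 CPM in KO-labelled 1 to 3, so that KO-labelled 1 lies below all controls and the other two above. *Rrp9*, a protein of the snoRNP that guides the first cleavages, had 17.9, 17.8 and 23.1 CPM in controls 1 to 3, against 17.96, 21.6 and 20.8 CPM in KO-labelled 1 to 3. Log2 fold changes were -0.15 for *Utp14a*, -0.12 for *Utp20* and -0.045 for *Utp3*, none past the threshold.

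*Utp18* and *Utp4* fell by similar amounts, and their start regions are shown because both hold an E-box and a pair of ETS-type motifs. Among the promoters of members examined, this is otherwise seen only for *Rrn3*, which was not called (log2 fold change -0.015). *Nat10* fell by an amount between those of *Utp18* and *Utp4* (-0.52), but its promoter holds neither motif and is not shown. Whether the motifs go with the direction of change was not tested. The sequences run from 150 bases before to 30 bases after the RefSeq start on the strand of the gene (chr11:93885737-93885916, minus strand, and chr8:106893490-106893669, plus strand, GRCm38.p6). Capitals mark CACGTG and CCGGAAG or its complement CTTCCGG. Counted from the start, the first base of the E-box is at -20 in *Utp18* and at 16 in *Utp4*. The ETS-type motifs begin at -106 and 7 in *Utp18* and at -43 and -19 in *Utp4*.
Utp18: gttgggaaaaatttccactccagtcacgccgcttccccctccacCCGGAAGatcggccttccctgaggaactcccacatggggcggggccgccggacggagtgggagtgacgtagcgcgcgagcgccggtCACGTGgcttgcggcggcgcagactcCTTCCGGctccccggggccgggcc
Utp4: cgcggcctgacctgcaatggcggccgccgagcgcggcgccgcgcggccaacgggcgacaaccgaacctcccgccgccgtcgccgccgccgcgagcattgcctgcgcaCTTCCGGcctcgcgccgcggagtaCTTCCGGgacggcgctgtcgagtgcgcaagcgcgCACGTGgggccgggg

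Of the 3 late factors of the small subunit, 1 was lower (33.3%, beside 16.5% of all tested genes). *Rrp12*, which helps export of the subunits from the nucleus, had 63.2, 59.2 and 70.2 CPM in controls 1 to 3, against 40.4, 55.96 and 54.1 CPM in KO-labelled 1 to 3. KO-labelled 1 is far below the other 2, which lie just under the lowest control (log2 fold change -0.36, edgeR adjusted p = 0.0297), and it was not called without KO-labelled 1, control 1 or control 3 (log2 fold changes -0.21, -0.37 and -0.28). *Bysl* had 33.4, 29.3 and 31.5 CPM in controls 1 to 3, against 27.03, 29.8 and 28.4 CPM in KO-labelled 1 to 3, and *Nob1*, the endonuclease that makes the end of the mature small subunit rRNA, had 14.2, 16.4 and 18.6 CPM in controls 1 to 3, against 17.96, 16.1 and 16.3 CPM in KO-labelled 1 to 3. Both overlap between groups, with 95% intervals of -0.35 to 0.067 and -0.24 to 0.30.

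Of the 7 genes of large subunit assembly, 5 were lower (71.4%, beside 16.5% of all tested genes) and 1 higher (14.3%, beside 16.2%). In DESeq2, *Pes1*, *Gnl3* and *Mrto4* were not called. *Rrs1* (ENSMUSG00000061024.8, chr1:9545408-9547455), which loads the small rRNA and its proteins onto the growing subunit, had 43.3, 45.5 and 41.8 CPM in controls 1 to 3, against 65.1, 70.9 and 66.1 CPM in KO-labelled 1 to 3. All KO-labelled libraries are well above the highest control. Its log2 fold change of 0.63 ± 0.085 (SE, edgeR adjusted p = 5.8e-05) is a rise of 54.8% and the largest change upward of a member, and it is still positive with the somatic marker scaling (0.19, edgeR adjusted p = 0.198). *Pes1*, *Bop1* and *Wdr12* encode a complex (PeBoW) that processes the precursor of the large subunit, and its members moved unequally. *Wdr12* had 20.02, 23.9 and 23.3 CPM in controls 1 to 3, against 14.9, 17.1 and 15.5 CPM in KO-labelled 1 to 3, with every KO-labelled library lower and a log2 fold change of -0.50 ± 0.12 (SE, edgeR adjusted p = 0.00439). *Bop1* had 33.5, 35.3 and 39.2 CPM in controls 1 to 3, against 30.5, 39.5 and 37.2 CPM in KO-labelled 1 to 3, with overlapping groups and a 95% interval of -0.25 to 0.23. *Pes1* lies between them with a log2 fold change of -0.23 (edgeR adjusted p = 0.0426), close to the threshold, and was not called without control 1, 2 or 3 or KO-labelled 1 or 2 (log2 fold changes -0.17 to -0.23). The ratio of *Pes1* to *Bop1* per kilobase was 2.31, 2.11 and 2.04 in controls 1 to 3, against 1.998, 1.68 and 1.87 in KO-labelled 1 to 3.

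*Ddx21*, an RNA helicase of the nucleolus, had 255, 279 and 259 CPM in controls 1 to 3, against 201, 233 and 228 CPM in KO-labelled 1 to 3. It did not overlap between groups (log2 fold change -0.26, edgeR adjusted p = 0.0226), but was not called without control 1, control 2 or KO-labelled 1 (-0.29, -0.18 and -0.19). *Mrto4*, a relative of a stalk protein that holds its place during assembly, had 32.9, 36.7 and 36.8 CPM in controls 1 to 3, against 31.6, 26.4 and 27.9 CPM in KO-labelled 1 to 3, likewise apart (log2 fold change -0.31, edgeR adjusted p = 0.0305), a call lost without control 2, control 3, KO-labelled 2 or KO-labelled 3 (-0.24 to -0.28) and in DESeq2 (adjusted p = 0.0546). *Gnl3*, the GTPase nucleostemin known from stem cells, stood at -0.26 on the log2 fold change scale (edgeR adjusted p = 0.041) and was not called without control 1, control 2, KO-labelled 1 or KO-labelled 2 (-0.18 to -0.25). Among 50-base stretches, 23.3% of *Pes1*, 12.2% of *Mrto4* and 6.30% of *Rrs1* occur in another annotated gene. Within a library, the ratio of *Rrs1* to *Mrto4* per kilobase was 1.68, 1.58 and 1.45 in controls 1 to 3, against 2.62, 3.43 and 3.02 in KO-labelled 1 to 3, apart in every library.

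**Figure D3:**
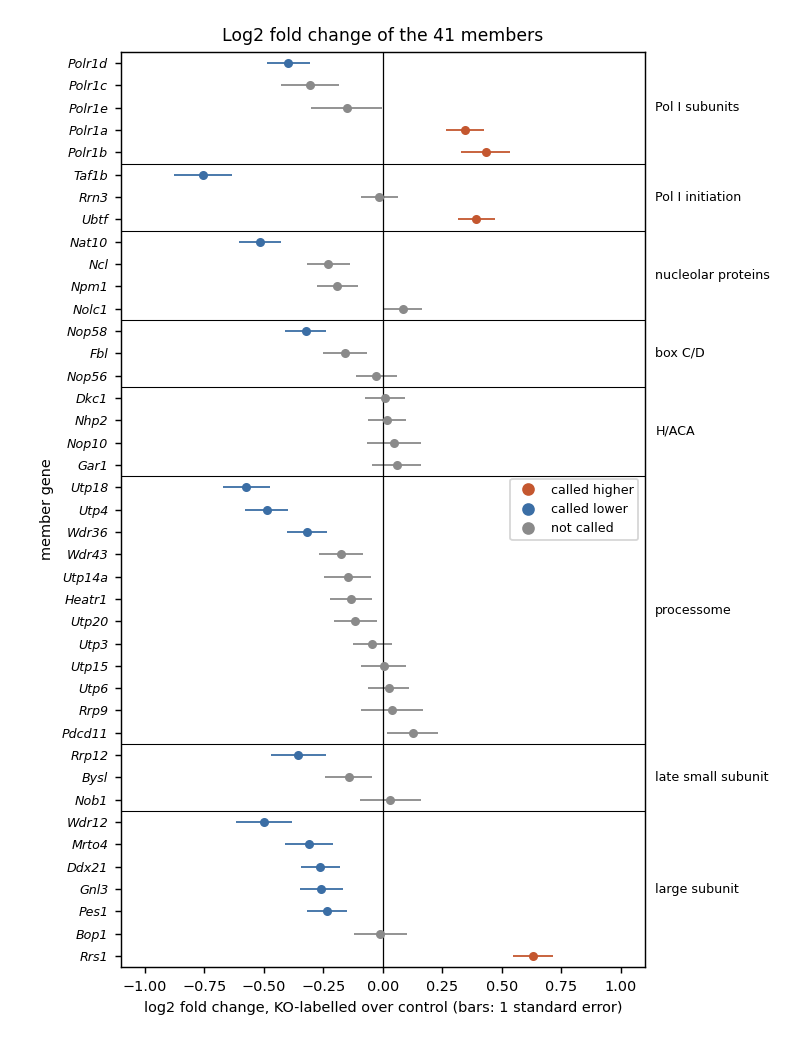
Log2 fold change (KO-labelled over control) of each member with 1 standard error from edgeR, grouped by role and ordered within a role; orange marks the 4 called higher, blue the 13 called lower and grey the 24 not called. The H/ACA genes sit at 0.01 to 0.06, and 5 of the 7 large subunit genes sit at -0.23 to -0.50.

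**Figure D4:**
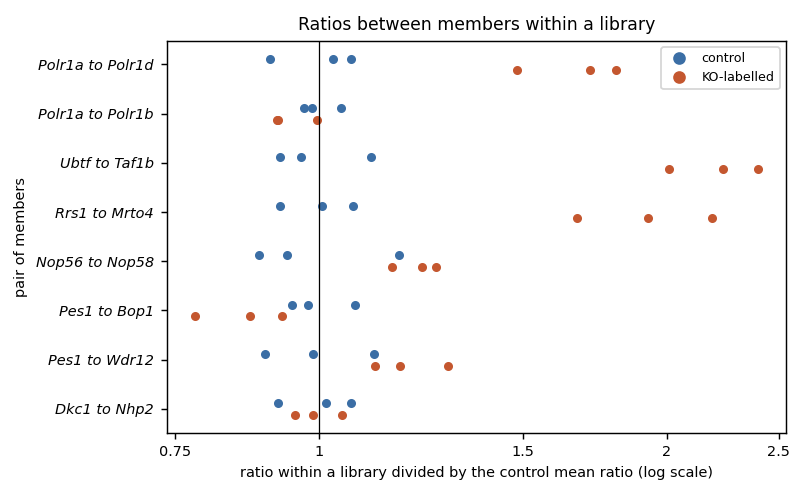
Ratios between pairs of members per kilobase within each control (blue) and KO-labelled (orange) library, divided by the mean ratio of the controls (horizontal log axis). *Polr1a* to *Polr1d*, *Ubtf* to *Taf1b* and *Rrs1* to *Mrto4* are higher in all KO-labelled libraries, and *Dkc1* to *Nhp2* overlaps between groups.

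Levels of the members per kilobase of exon ran from 1.88 to 224 CPM in the controls. In the controls *Npm1* (224 ± 24.1 CPM per kilobase, SD, n = 3), *Ncl* (172 ± 19.2) and *Nhp2* (101 ± 5.68) led, and their libraries did not overlap in that order. *Ddx21*, *Ubtf* and *Utp3* followed at 51.1, 47.6 and 47.4 CPM per kilobase, of which *Ubtf* and *Utp3* overlap. The middle of the order was crowded, and from *Pes1* (26.1) down to *Polr1a* (14.7) each gene overlapped with the next. *Nob1* (4.71), *Polr1e* (3.36) and *Wdr12* (1.88) were lowest, each apart from the next. The order depends on the deposited exon length, which is 11955 bases for *Wdr12*, 3486 for *Nob1* and 3897 for *Polr1e*. In CPM not divided by length, the control mean of *Wdr12* (22.4) was above those of *Nob1* (16.4) and *Polr1e* (13.1). Among Pol I subunits *Polr1d* was highest in the controls (20.3), ahead of *Polr1a*, *Polr1c* (10.9), *Polr1b* (7.25) and *Polr1e*. In the KO-labelled libraries *Polr1a* was first (18.7) before *Polr1d* (15.4), and *Polr1b* (9.77) was ahead of *Polr1c* (8.80), though the libraries of the last pair overlap. *Rrs1* moved from rank 15 to rank 9 of the 41, and *Taf1b* from rank 30 to rank 38.

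**Figure D5:**
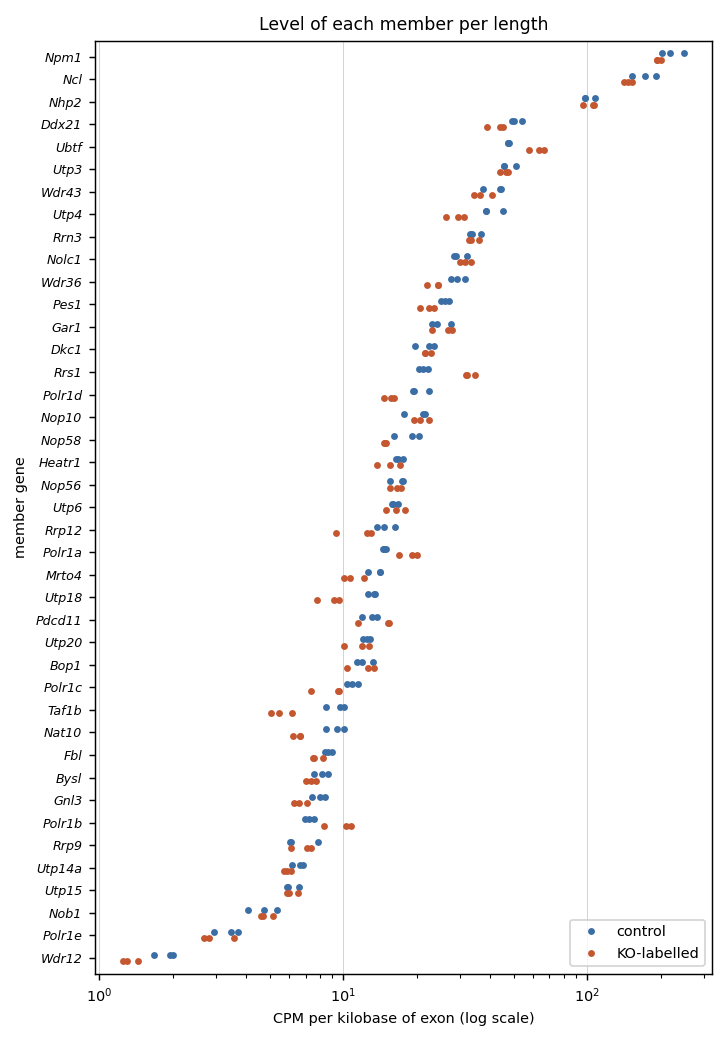
CPM per kilobase of exon (horizontal log axis) of each member in the 3 control (blue) and 3 KO-labelled (orange) libraries, ordered by the control mean. *Npm1* leads at 224 and *Wdr12* is last at 1.88 CPM per kilobase in the controls; orange points stand clear to the left for *Utp4*, *Utp18*, *Taf1b* and *Nat10* and to the right for *Rrs1*.

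Summed over the 41 members, raw counts were 0.559% to 0.601% of the control and 0.480% to 0.508% of the KO-labelled libraries, without overlap. In TMM-scaled units the sums were 5269 to 5933 CPM in the control and 4955 to 5296 CPM in the KO-labelled libraries, which overlap. Without *Ncl* and *Npm1*, neither of them called, these sums were 3168 to 3318 CPM and 2927 to 3223 CPM, which overlap too. Replicates were close, with a coefficient of variation whose median over members was 6.55% over the controls and 6.93% over the KO-labelled libraries. The KO-labelled libraries were not alike in this list. The median log2 deviation of the members from the control mean was -0.21 in KO-labelled 1 and -0.07 and -0.08 in the others, and *Rrp12*, *Polr1c*, *Pdcd11* and *Bop1*, among others, had their lowest value of all 6 libraries in KO-labelled 1.

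A further list of 95 ribosome biogenesis genes, written from general knowledge, was counted in the same fit. Of the 94 tested, 22 were lower and 5 higher, which is 23.4% and 5.32% beside 16.5% and 16.2% of all tested genes, with a median log2 fold change of -0.11. *Taf1d*, a subunit of SL1 like *Taf1b*, fell most clearly, from 179.8 ± 7.53 CPM (SD, n = 3) to 90.7 ± 6.29 CPM (SD, n = 3), a log2 fold change of -0.99 ± 0.080 (SE, edgeR adjusted p = 6.9e-07). *Nmd3*, the export adaptor of the large subunit, fell from 113 ± 14.04 CPM (SD, n = 3) to 67.4 ± 2.39 CPM (SD, n = 3), with a log2 fold change of -0.74 ± 0.093 (SE, edgeR adjusted p = 3.4e-05). *Rrp1b*, a nucleolar protein of large subunit assembly, stood at -0.74 on the log2 fold change scale (edgeR adjusted p = 5.1e-05). In the other direction, *Gnl3l*, a relative of *Gnl3*, had 65.1, 61.2 and 59.9 CPM in controls 1 to 3, against 90.5, 82.3 and 82.3 CPM in KO-labelled 1 to 3, a log2 fold change of 0.45 ± 0.082 (SE, edgeR adjusted p = 6.4e-04). *Riok2*, a kinase of late small subunit maturation, and *Cd3eap*, a Pol I subunit that pairs with the product of *Polr1e*, had log2 fold changes of 0.32 and 0.32 (edgeR adjusted p = 0.0117 and 0.0218). *Riok2* was not called without control 3 (0.25), nor *Cd3eap* without control 1 or KO-labelled 2 (0.25 and 0.31). The number of rises moved with single libraries. It was 2 without control 1, control 3 or KO-labelled 2, 3 without KO-labelled 3 and 8 without control 2. Under the somatic marker scaling 81 genes of this list were lower and 0 higher, beside 9104 and 417 of all 20327 genes. The median of the list minus that of all genes was -0.085 with TMM and -0.084 with that scaling.

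MYC and its partners bind E-boxes and are known to drive ribosome biogenesis genes. Of 11 genes of this network, 8 were higher (72.7% beside 16.2% of all tested genes) and 0 lower with a median log2 fold change of 0.36. Under the somatic marker scaling 0 were higher and 1 lower with a median of -0.08, beside 417 higher and 9104 lower of all 20327 genes. The median of this list minus that of all genes was 0.38 under both scalings. *Mxi1* and *Mxd4*, which encode repressors that compete with MYC for MAX, had 178, 194 and 176 CPM in controls 1 to 3, against 263, 271 and 256 CPM in KO-labelled 1 to 3 and 85.1, 88.9 and 100.1 CPM in controls 1 to 3, against 129, 127 and 127 CPM in KO-labelled 1 to 3, respectively. *Mycl* had 10.2, 11.3 and 12.1 CPM in controls 1 to 3, against 15.3, 19.003 and 18.4 CPM in KO-labelled 1 to 3. The 3 log2 fold changes were 0.52, 0.48 and 0.65 (edgeR adjusted p = 9.8e-05, 3.8e-04 and 0.00183). The KO-labelled libraries were above all controls for each. Also called higher were *Myc* (log2 fold change 0.57, with overlapping groups), *Mycn* (0.41), *Mnt* (0.36), *Mxd1* (0.30) and *Max* (0.29). Among 9 genes that respond to or relay nucleolar stress, 2 were higher and 2 lower with TMM, 22.2% each way beside 16.2% and 16.5% of all tested genes. *Trp53* (p53) had 179, 180.1 and 189 CPM in controls 1 to 3, against 254, 245 and 228 CPM in KO-labelled 1 to 3, a log2 fold change of 0.41 ± 0.075 (SE, edgeR adjusted p = 7.5e-04), and *Sesn1* stood at 0.34 on the log2 fold change scale (edgeR adjusted p = 0.00553). *Sesn1* is a p53 target, and so are *Cdkn1a*, *Ccng1* and *Bbc3*, named here after their values were seen, which were not called (edgeR adjusted p = 0.251, 0.894 and 0.73). *Cdkn2a*, which encodes ARF and a cell cycle inhibitor, had 16.8, 19.1 and 22.1 CPM in controls 1 to 3, against 5.39, 7.14 and 10.3 CPM in KO-labelled 1 to 3, a log2 fold change of -1.35 ± 0.20 (SE, edgeR adjusted p = 1.1e-04). *Mdm2*, also a p53 target and the ligase that degrades p53, was called lower, at -0.24 on the log2 fold change scale (edgeR adjusted p = 0.0434). It was not called in DESeq2 (adjusted p = 0.0818) or without control 1, control 2, KO-labelled 2 or KO-labelled 3 (-0.11 to -0.27). With the somatic marker scaling 0 of the 9 were higher and 5 lower, beside 417 higher and 9104 lower of all 20327 genes. The median of these 9 minus that of all genes was 0.14 with TMM and 0.13 with that scaling.

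RefSeq promoters of 300 bases, from 250 before to 50 after the start, were matched for 34 of the 41 members and for 13056 tested genes. CCGGAAG occurred on either strand in 12 of the 34 (35.3%), beside 15.9% of all 13056 and 47.5% of 80 genes of the further list. CACGTG was in 6 (17.6%, beside 9.71% and 22.5%), namely in *Pes1*, *Rrn3*, *Utp4*, *Utp18*, *Utp20* and *Wdr43*. TATAAA was in 3 (8.82%, beside 7.95% of all), and a C followed by 4 pyrimidines at the start, as in transcripts of ribosomal proteins, was in 1 (2.94%, beside 2.49%). The median GC content was 59.2% in members and 60.3% over all, and the observed over expected CpG ratio was 0.877 and 0.725. Of 11 promoters of members called lower, 3 held CCGGAAG and 3 held CACGTG, of 20 not called 9 and 3, and of the 3 called higher 0 and 0. A match is a run of letters in this window, and binding was not measured.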

How the data were processed

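Per the labels and the study's methods, the authors isolated total RNA from testes, primed with random and poly(T) primers, depleted abundant transcripts, sequenced single-end reads of 50 bases, trimmed with cutadapt, aligned with HISAT2 to GRCm38.p5 and ran featureCounts 1.6.4 on a strand of GENCODE M18 exons. The deposited values are raw counts per gene, without reads that map to several places, and 0 columns of library values were left unused.

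Counts were tested here with edgeR 4.0.16 (TMM, filterByExpr, glmQLFit, glmQLFTest) in R 4.3.3, control against KO-labelled, over all 6 libraries, and an adjusted p under 0.05 is a call. The standard error is the log2 fold change divided by the square root of F, and CPM are TMM-scaled. Levels between genes use CPM per kilobase of the deposited exon length. DESeq2 1.42.0, limma-voom (limma 3.58.1), other factors and filters, and leaving out each library were alternatives, and the fits were tested on simulated data. Tables used Python 3.11.15. Symbols came from GENCODE M21 for 54165 of the 54232 genes.

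Members and lists were chosen with earlier results of these data known. By rule, values per library are given for up to 3 members per role and direction with the smallest adjusted p and for the one with the largest. For the further list the 3 smallest in each direction are named, for the MYC and stress lists up to 3 called genes, and for marker lists 1 gene. The other called genes of the MYC list are given outside that rule, by log2 fold change. Promoters are shown for members called with starts within 30 bases of the GENCODE start, and the pairs shown were chosen after their values were seen. No promoter entry was matched for 7 members. The study calls the libraries of a condition biological replicates, but the sources used here do not tie each to an animal, and p-values measure the spread between these libraries.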

Additional observations from a re-analysis of the deposited data

How the results depend on the processing

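With factors from somatic markers, 36 members were lower and 0 higher (13 and 4 with TMM), and 81 further genes were lower and 0 higher (22 and 5). Of all 20327 genes, 9104 were lower and 417 higher (3347 and 3294 with TMM). That scaling turned the sign of *Polr1a* (-0.088), *Polr1b* (-5.2e-05), *Ubtf* (-0.041), *Nolc1* (-0.36), *Nop10* (-0.39), *Nhp2* (-0.43), *Gar1* (-0.37), *Dkc1* (-0.43), *Utp6* (-0.42), *Utp15* (-0.43), *Pdcd11* (-0.31), *Rrp9* (-0.39), *Nob1* (-0.41) and *Dis3l2* (-0.22), and of *Riok2* (-0.12), *Cd3eap* (-0.12), *Trp53* (-0.031), *Sesn1* (-0.10) and *Cdh5* (-0.051), which are no members. Other settings turned the sign of log2 fold changes near 0: RLE factors for *Bop1* (0.0023), DESeq2 for *Rrn3* (0.0061) and *Bop1* (0.012), no filter on low counts for *Rrn3* (0.011) and *Bop1* (0.017), at least 10 counts in every library for *Nhp2* (-0.0042), *Dkc1* (-0.013) and *Utp15* (-0.019) and protein-coding genes only for *Nhp2* (-0.018), *Dkc1* (-0.026), *Utp6* (-0.011), *Utp15* (-0.032) and *Nob1* (-0.0049). Over the fits that left out a library, the members called lower numbered 7 to 12, those called higher 4 to 5, the further genes called lower 15 to 22 and called higher 2 to 8. The log2 fold changes that changed sign there ranged from -0.0093 to 0.11 for *Nhp2*, -0.022 to 0.18 for *Rrp9*, -0.063 to 0.13 for *Nob1*, -0.047 to 0.071 for *Rrn3*, -0.085 to 0.042 for *Nop56*, -0.076 to 0.050 for *Utp3*, -0.082 to 0.10 for *Bop1*, -0.064 to 0.11 for *Dkc1*, -0.035 to 0.056 for *Utp15* and -0.031 to 0.095 for *Utp6*. None of the genes whose sign changed on leaving out a library was called with TMM. Protein-coding genes alone gave 16 members lower and 3 further genes higher. Under the 8 settings other than the somatic scaling and the 6 that left out a library, members called lower numbered 9 to 16 and called higher 4. *Taf1b*, *Utp18*, *Nat10*, *Wdr12*, *Utp4* and *Polr1d* were called lower under all 15 alternatives, while *Nop58* and *Wdr36* kept their call in 13, *Rrp12* in 12, *Ddx21* in 11, *Mrto4* in 9, *Gnl3* in 7 and *Pes1* in 6. No pairing by replicate number was seen: deviations from the group means of libraries with the same number correlated at -0.0014, -0.0126 and 0.0139 across genes. With 3 libraries per group, this cannot exclude pairs of littermates. The fit with the replicate number as a block called 13 members lower, 4 higher, 23 further genes lower and 4 higher. Without a filter, and in DESeq2, 42383 genes enter, the median of all genes fell to -0.33, and 9 and 10 members were lower. Groups of 3 libraries were not tested for outliers. The standard errors of the members ran from 0.078 to 0.15 on the log2 scale.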
